A study of Mus musculus with 10 samples.

Results

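The peaks described here were ATAC-seq peaks of intestinal innate lymphoid cells. Their signal was lower in cells that had lost RORa in addition to RORgt than in cells without RORgt alone or without RORgt and T-bet. ATAC-seq counts insertions of the Tn5 transposase, which enters open chromatin, and innate lymphoid cells (ILCs) are tissue lymphocytes that carry no rearranged antigen receptor. A peak was a member when all 3 RORgt-RORa-KO libraries lay below all RORgt-Tbet-KO and RORgt-KO libraries, and when the RORgt-RORa-KO mean was at least 0.8 lower, on the log2 scale (1.74-fold), than the mean of each of those groups. Of 36251 peaks outside the Y chromosome, 777 (2.14%) were members. Because these values chose the members, the gap between RORgt-RORa-KO and the other knockouts is given below as a description, and no test rests on it.

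The groups were RORgt-RORa-KO (n = 3; Id2creERT2+, tdRFP+, with floxed alleles for RORgt and Rora f/f), RORgt-Tbet-KO (n = 2; Id2creERT2+, tdRFP+, with floxed alleles for RORgt and Tbx21 f/f), RORgt-KO (n = 2; Id2creERT2+, tdRFP+, with floxed alleles for RORgt) and Control (n = 3; Id2creERT2+, tdRFP+, with no floxed allele). All were C57BL/6 mice fed tamoxifen for several weeks, so the controls carried the active Cre and the red reporter too, and Id2 directs the Cre to every cell that expresses it. No group lost RORa alone: the comparison adds the loss of RORa to the loss of RORgt. Each library came from 1 mouse or from 2 or 3 pooled mice; the labels give neither the ages nor the surface markers of the sort.

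RORa and RORgt are related nuclear receptors that bind DNA mostly as monomers, at an AGGTCA core preceded by an AT-rich stretch, and activate transcription. The REV-ERB receptors recognise the same elements and repress, which places ROR factors in the circadian clock. RORgt is required for group 3 ILCs, the makers of interleukin-17 and interleukin-22, and RORa is known from group 2 ILCs and as a helper of RORgt in interleukin-17-producing cells. T-bet, encoded by Tbx21, directs the type 1 programme.

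Reads in peaks outside Y numbered between 2271585 (RORgt-RORa-KO replicate 2) and 5047436 (RORgt-Tbet-KO replicate 2), and the median of all peaks lay between 5.90 and 6.03 log2 units in every library. The values are log2 scaled reads per peak. Id2, Il7r and Gata3, genes that ILCs use, had 6, 5 and 7 peaks, whereas Cd3g of T cells, Ms4a1 of B cells, Csf1r of macrophages and Col1a1 of fibroblasts had none. Other markers did have peaks: the T cell genes Cd3d, Cd3e and Cd247 had 1, 1 and 4, the epithelial gene Epcam 3 and the endothelial gene Pecam1 8. In Control, the highest peak of Cd247 lay at the 96.9th percentile of all peaks, that of Cd3d at the 78.3rd, Pecam1 at the 67.6th, Epcam at the 66.2nd and Cd3e at the 22.0th, so these markers do not show the cells to be free of other types. None of the 14 peaks named after Rora and the 3 after Tbx21 was a member, and a peak outside the deleted exons does not test a deletion. Reads in 4 peaks specific to the Y chromosome numbered 187, 0 and 183 in RORgt-RORa-KO, 0 and 390 in RORgt-Tbet-KO, 260 and 0 in RORgt-KO and 0, 0 and 222 in Control, so each group held libraries with and without them.

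A few members covered the start of a gene, and 3 of these windows are printed because their peaks carried large differences in genes of lymphocytes or of cell signalling. Each is the 250 bases before a RefSeq start on GRCm38.p6, on the strand of the gene, and lies wholly inside its member peak. Capitals mark AGGTCA, or TGACCT where the motif is on the opposite strand.
Il17f (chr1:20784271-20784520, minus strand): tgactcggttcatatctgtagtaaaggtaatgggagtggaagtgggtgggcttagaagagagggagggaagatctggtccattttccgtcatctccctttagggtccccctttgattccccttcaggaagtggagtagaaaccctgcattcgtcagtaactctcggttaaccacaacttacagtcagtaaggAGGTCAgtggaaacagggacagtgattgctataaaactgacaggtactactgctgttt
Il23r (chr6:67491856-67492105, minus strand): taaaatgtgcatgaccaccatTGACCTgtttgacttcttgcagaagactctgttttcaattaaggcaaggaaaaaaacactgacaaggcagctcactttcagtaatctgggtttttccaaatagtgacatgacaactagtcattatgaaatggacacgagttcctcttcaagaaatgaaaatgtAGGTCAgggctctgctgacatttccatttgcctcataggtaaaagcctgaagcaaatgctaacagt
Ednrb (chr14:103843702-103843951, minus strand): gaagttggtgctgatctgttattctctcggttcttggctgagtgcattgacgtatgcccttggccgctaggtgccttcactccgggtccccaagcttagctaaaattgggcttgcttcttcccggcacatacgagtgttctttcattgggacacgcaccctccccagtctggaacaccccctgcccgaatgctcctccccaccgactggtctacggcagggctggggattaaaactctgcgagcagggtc

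The Il17f window held 1 AGGTCA, whose first base lies 58 bases before the start, and the Il23r window held 2, at 229 (opposite strand) and at 66 bases before it. The Ednrb window held none. In all, 21 members overlapped 24 RefSeq start windows of 250 bases before to 50 bases after a start. AGGTCA, searched on both strands, was in 6 of the 24 windows (25%), against 11.4% of the 11690 windows that overlapped any peak and 16.3% of all 32851 windows. The longer TAGGTCA, which contains AGGTCA, was in 4 of 24 (16.7%), against 1.80% and 2.61%; these 4 were the windows of Il23r and of the predicted genes Gm34406, Gm11476 and Gm34350. Among 22 windows overlapping peaks chosen by the mirrored rule (higher in RORgt-RORa-KO than in the other knockouts), 5 held AGGTCA and 1 held TAGGTCA. The windows are few, a match is not a bound site, and most members lie away from gene starts.

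The median member reached 4.73, 4.63 and 4.49 log2 units in the RORgt-RORa-KO libraries, 6.00 and 6.01 in RORgt-Tbet-KO, 5.74 and 5.90 in RORgt-KO and 6.50, 6.56 and 6.35 in Control. In raw reads the median member held 19, 14 and 25 reads in RORgt-RORa-KO, 68 and 77 in RORgt-Tbet-KO, 44 and 38 in RORgt-KO and 70, 73 and 51 in Control. The lesser of the gaps to RORgt-Tbet-KO and to RORgt-KO had a median of 1.10 over the members and reached 2.69; it was at least 1 in 483 members and at least 2 in 30. Next to the threshold, the nearest members inside had gaps of 0.8007 (chromosome 6, no gene near), 0.8011 (Mast4) and 0.8028 (Lpp), and the nearest peaks outside had 0.7998 (chromosome 16, no gene near), 0.7996 (Dnajc5b) and 0.7991 (Snx29). In the contrasts that the rule itself used, 527 members (67.8%, with 3.72% of all peaks) were called lower in RORgt-RORa-KO than in RORgt-Tbet-KO and 345 (44.4%, with 1.14%) than in RORgt-KO by limma, which is given only to describe the choice. Of 2576 peaks without overlap of libraries, 1799 fell short of 0.8.

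The rule was also applied without 1 library at a time. Peaks chosen without RORgt-RORa-KO replicate 1, 2 or 3 had the left-out library below all RORgt-Tbet-KO and RORgt-KO libraries in 71.9%, 70.9% and 87.4% of cases. Of all peaks, 25.9%, 29.7% and 23.2% did. Left-out RORgt-Tbet-KO libraries lay above all RORgt-RORa-KO libraries in 92.0% and 95.2% of the peaks chosen without them, and left-out RORgt-KO libraries in 83.1% and 87.3%. Of all peaks, 27.3%, 27.7%, 22.9% and 26.5% did, in the same order. The libraries set against the left-out one still chose the peaks, which by itself raises the shares of chosen peaks above those of all peaks. The shares therefore only describe how the libraries differed: RORgt-RORa-KO replicates 1 and 2 were less often on the chosen side than replicate 3.

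Control values were not used by the rule, and they split the members. Most members were open in Control: in 674 (86.7%) the Control mean was at least 0.8 above the RORgt-RORa-KO mean with no overlap of libraries. In 27 (3.47%) the peak was closed in Control, with a Control mean at least 0.8 below the RORgt-Tbet-KO and RORgt-KO means and no overlap with either. A single peak, inside D430041D05Rik, met both conditions, with 3.29, 3.14 and 3.54 in RORgt-RORa-KO, 5.53 and 5.72 in RORgt-Tbet-KO, 4.93 and 5.78 in RORgt-KO and 3.83, 4.62 and 4.48 in Control. The other 75 (9.65%) met neither and are called unresolved. Since the classes are set by the Control values, the differences from Control given below for open and closed members describe their size, and their p-values add no support: 662 of the 674 open members (98.2%) passed as lower in RORgt-RORa-KO. The closed class numbered 56 when RORgt-KO replicate 1 was left out.

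**Figure D1:**
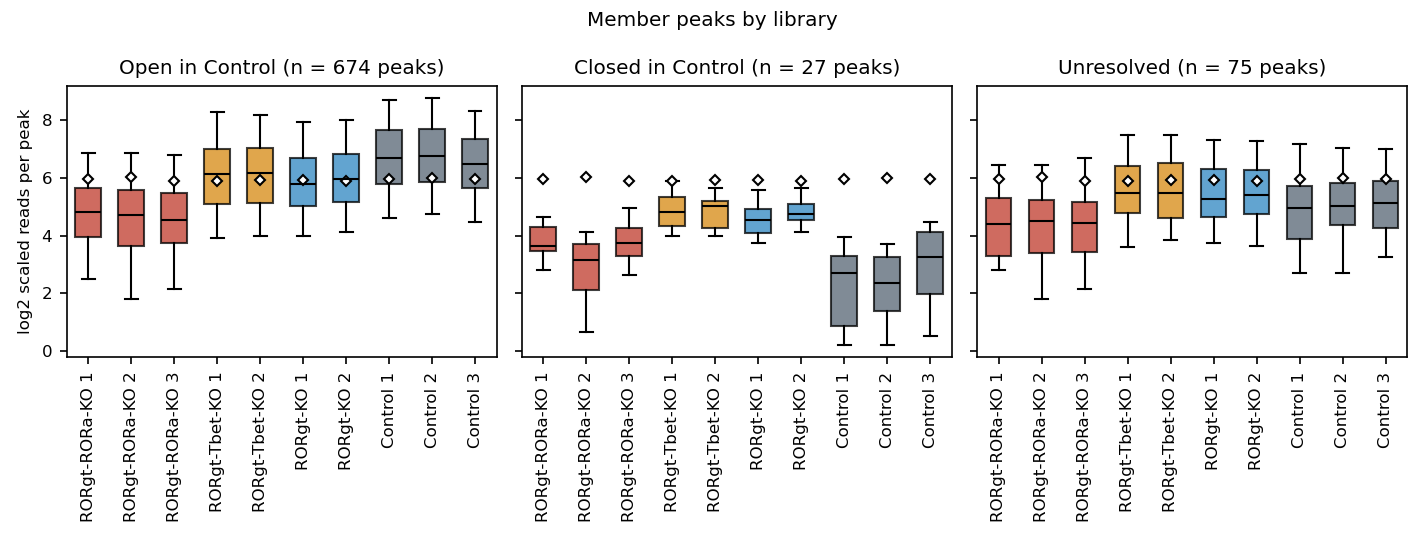
Log2 scaled reads of member peaks in each library, in 3 panels by their level in Control. Boxes span the quartiles with the median as a line, whiskers reach the 5th and 95th percentiles of the peaks, and white diamonds give the median of all peaks in that library. In the panel of peaks open in Control, the RORgt-RORa-KO boxes lie below the diamonds and the Control medians above them. In the closed panel, the Control medians (2.69, 2.37 and 3.26) are lowest, except that RORgt-RORa-KO replicate 2 (3.14) lies below Control replicate 3.

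Against Control, 681 members (87.6%) were significantly lower in RORgt-RORa-KO, where 16.1% of all peaks did, and 5 (0.644%) as higher, where 15.1% did. RORgt-RORa-KO values entered the rule, so this count describes where Control lay. The test was limma's moderated test with Benjamini-Hochberg adjustment over all peaks at 0.05, which supplies every adjusted p below. The median log2 difference of the members was -1.78, against 0.02 for all peaks. In RORgt-KO, 210 members (27.0%) were lower than Control (7.12% of all peaks) and 13 (1.67%) were higher (5.19%). In RORgt-Tbet-KO, 191 (24.6%) were lower (11.3%) and 49 (6.31%) were higher (11.3%). These smaller counts depended on single libraries: the count lower in RORgt-KO was 94 and 129 without RORgt-KO replicate 1 and 2, the count lower in RORgt-Tbet-KO was 96 and 94 without RORgt-Tbet-KO replicate 1 and 2, and the counts of higher peaks were as low as 4 and 10. All 3 comparisons share the Control libraries.

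The members were therefore not all lower in RORgt-RORa-KO alone. Relative to Control, 416 (53.5%, against 6.67% of all peaks) were lower in RORgt-RORa-KO and passed the test in neither other knockout. A further 157 (20.2%, against 5.1%) passed as lower in all 3 knockouts, 53 (6.82%, against 1.26%) in both RORgt-RORa-KO and RORgt-KO, and 34 (4.38%, near the 2.98% of all peaks) in both RORgt-RORa-KO and RORgt-Tbet-KO. In 21 members (2.7%, against 0.0772% or 28 of all peaks) RORgt-RORa-KO was lower than Control while RORgt-KO or RORgt-Tbet-KO was higher, and 68 passed in no comparison with Control (8.75%, against 61.3% of all peaks). Control libraries lay above all RORgt-Tbet-KO and RORgt-KO libraries in 327 members (42.1%), against 15.4% of all peaks. Since the cells were profiled in bulk, fewer cells with an open site and a site less open in each cell cannot be told apart.

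**Figure D2:**
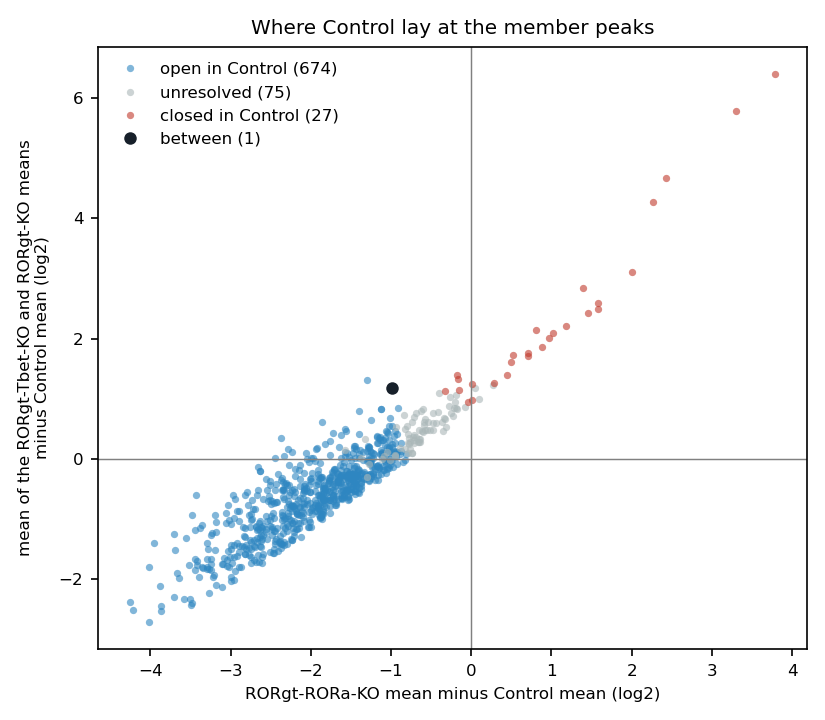
Each point is a member peak, coloured by its class: the RORgt-RORa-KO mean minus the Control mean (log2, x axis) against the mean of the RORgt-Tbet-KO and RORgt-KO means minus the Control mean (log2, y axis). The rule itself keeps points at least 0.8 above the diagonal; the 674 peaks open in Control fill the left side, and the 27 closed peaks lie at the upper right, where the 4 farthest are the uncertain peaks at the Dynlt1b copies.

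RORgt-Tbet-KO and RORgt-KO, the groups that the rule required to be high, differed from each other at 4 members (0.515%), each higher in RORgt-Tbet-KO; of all peaks 1.14% differed in either direction and 0.179% were higher. They were a peak at an end of the zinc transporter gene Slc30a2, a peak 2231 bp from the keratin gene Krt8, and peaks with no gene within 50 kb on chromosomes 8 and 12. The Slc30a2 peak had 6.42, 5.63 and 5.91 in RORgt-RORa-KO, 8.52 and 8.28 in RORgt-Tbet-KO, 7.45 and 7.27 in RORgt-KO and 7.21, 7.17 and 7.33 in Control. It was thus high in RORgt-Tbet-KO alone, with RORgt-KO close to Control. All 4 calls were lost when either library of RORgt-Tbet-KO or of RORgt-KO was left out, and there were 9 calls without RORgt-RORa-KO replicate 2.

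Of the type 3 effector and receptor genes, 6 of 23 with a peak had members (7 of 131 peaks, 5.34%, against 2.14% of all peaks): the cytokine genes Il17a, Il17f and Csf2, the chemokine gene Ccl20, the interleukin-23 receptor gene Il23r, and Cd83, a surface protein of activated cells. Over the whole list, 31 peaks (23.7%, against 16.1% of all peaks) were lower and 23 (17.6%, against 15.1%) higher in RORgt-RORa-KO than in Control. In RORgt-Tbet-KO 18 (13.7%, against 11.3%) were lower and 37 (28.2%, against 11.3%) higher, while RORgt-KO had 18 lower (13.7%, against 7.12%) and 9 higher (6.87%, against 5.19%). The median difference from Control over the list was 0.01 in RORgt-RORa-KO; for all peaks it was 0.02. The members were thus a small part of the peaks of these genes.

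Il17a and Il17f, neighbours on chromosome 1 that encode interleukin-17A and interleukin-17F, shared 3 members within 44283 bp. The one 5891 bp from Il17a (20740387 to 20740965) had 5.65, 4.73 and 5.70 in RORgt-RORa-KO, 7.48 and 7.64 in RORgt-Tbet-KO, 7.28 and 7.04 in RORgt-KO and 8.73, 8.69 and 8.34 in Control. The groups did not overlap: RORgt-RORa-KO was lowest, RORgt-KO and RORgt-Tbet-KO lay close together, and Control was highest. It was lower than Control by -3.23 in RORgt-RORa-KO (SE 0.22, adjusted p = 1.61e-11), by -1.03 in RORgt-Tbet-KO (SE 0.25, adjusted p = 0.00311) and by -1.42 in RORgt-KO (SE 0.25, adjusted p = 0.000216). The member at the Il17f start (20784151 to 20784670) had 4.39, 4.52 and 4.84 in RORgt-RORa-KO, 6.29 and 6.33 in RORgt-Tbet-KO, 5.71 and 6.32 in RORgt-KO and 7.77, 8.07 and 7.64 in Control, again with RORgt-RORa-KO lowest and Control highest. Its differences from Control were -3.24 (SE 0.24), -1.52 (SE 0.27) and -1.81 (SE 0.27) for RORgt-RORa-KO, RORgt-Tbet-KO and RORgt-KO. Between them, a member 16924 bp from Il17f (20759576 to 20760222) had 5.07, 5.77 and 5.37 in RORgt-RORa-KO, 7.28 and 7.29 in RORgt-Tbet-KO, 6.97 and 6.80 in RORgt-KO and 8.08, 8.66 and 7.93 in Control.

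Not every peak of this stretch followed. The peak 10053 bp from Il17f (20766378 to 20767093) had 6.89, 6.91 and 6.94 in RORgt-RORa-KO, 6.80 and 6.58 in RORgt-Tbet-KO, 7.32 and 7.03 in RORgt-KO and 6.96, 7.24 and 6.87 in Control, and differed from Control by -0.11 in RORgt-RORa-KO (SE 0.19, adjusted p = 0.711). The peak 44632 bp before Il17a (20685830 to 20686273) had 4.19, 3.82 and 3.54 in RORgt-RORa-KO, 2.50 and 3.20 in RORgt-Tbet-KO, 3.74 and 3.46 in RORgt-KO and 6.64, 6.68 and 6.51 in Control. There all knockouts were low, and RORgt-RORa-KO was not the lowest.

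**Figure D3:**
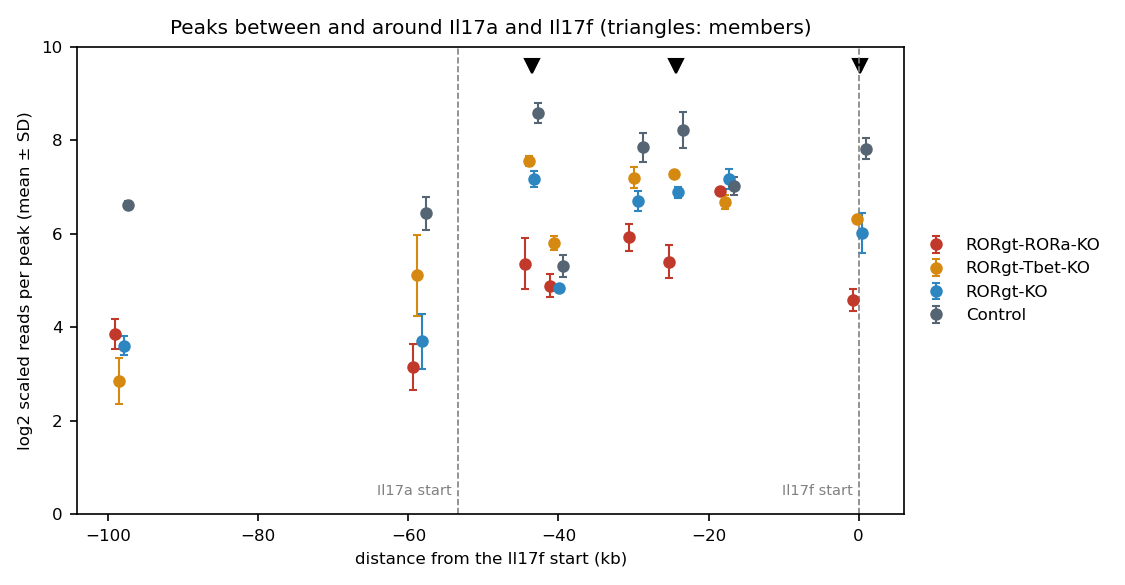
Log2 scaled reads (mean ± SD over libraries, n = 3, 2, 2 and 3) of the peaks around Il17a and Il17f, by distance from the Il17f start; the groups are shifted sideways slightly, and triangles mark members. At the 3 members RORgt-RORa-KO is lowest, RORgt-Tbet-KO and RORgt-KO are in the middle and Control is highest, while the peak nearest to the left of the Il17f start is level in all groups.

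Il23r, the receptor chain through which interleukin-23 drives type 3 responses, had another pattern. The member over its start (chromosome 6, 67491660 to 67492399), which holds the AGGTCA motifs printed above, had 6.07, 5.86 and 6.30 in RORgt-RORa-KO, 7.85 and 7.66 in RORgt-Tbet-KO, 7.65 and 7.39 in RORgt-KO and 7.77, 7.86 and 7.17 in Control. RORgt-Tbet-KO and RORgt-KO overlapped Control, and RORgt-RORa-KO lay below them all. The difference from Control was -1.52 in RORgt-RORa-KO (SE 0.20, adjusted p = 1.22e-06), 0.15 in RORgt-Tbet-KO (SE 0.23, adjusted p = 0.673) and -0.08 in RORgt-KO (SE 0.23, adjusted p = 0.880). Of the other 9 peaks of Il23r, 4 were higher in RORgt-RORa-KO than in Control and 1 was lower. The one from 67415208 to 67415644 was higher by 2.80 (SE 0.30, adjusted p = 3.49e-08). There RORgt-Tbet-KO (1.30, SE 0.33, adjusted p = 0.00527) and RORgt-KO (1.70, SE 0.33, adjusted p = 0.000844) were higher too. The other knockouts were also higher at the peaks that start at 67431720 and 67459380, but did not pass at 67399581. The lower peak also passed as lower in RORgt-KO (-1.15, SE 0.36, adjusted p = 0.0318).

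The Ccl20 member, 18712 bp from the gene of the chemokine that recruits CCR6-bearing lymphocytes, had 5.07, 4.28 and 4.01 in RORgt-RORa-KO, 5.53 and 5.65 in RORgt-Tbet-KO, 5.33 and 6.43 in RORgt-KO and 7.14, 7.29 and 6.74 in Control. Control lay above all knockouts, and the difference from it was -2.60 in RORgt-RORa-KO (SE 0.31, adjusted p = 1.89e-07). The Cd83 member differed by -1.76 (SE 0.28), and the member 30628 bp from Csf2, which encodes the growth factor GM-CSF, by -0.79 (SE 0.24, adjusted p = 0.0114). The Csf2 call was lost without RORgt-RORa-KO replicate 1 (adjusted p = 0.0524) or Control replicate 1 (adjusted p = 0.0682).

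Of the clock and REV-ERB/ROR response genes, Cry1 and Nr1d1 had members (3 of 58 peaks of 20 genes, 5.17%, against 2.14% of all peaks). Over the list, 11 peaks (19%, near the 16.1% of all peaks) were lower and 6 (10.3%, against 15.1%) higher than Control in RORgt-RORa-KO. RORgt-Tbet-KO had 6 lower (10.3%, near the 11.3% of all peaks) and 11 higher (19%, against 11.3%). RORgt-KO had 3 lower (5.17%, against 7.12%) and 1 higher (1.72%, against 5.19%). Cry1 encodes a repressor of the clock and held 2 members inside the gene, on chromosome 10. The first (85161835 to 85162258) had 4.57, 3.14 and 2.65 in RORgt-RORa-KO, 5.89 and 5.58 in RORgt-Tbet-KO, 5.24 and 5.51 in RORgt-KO and 5.13, 5.46 and 5.53 in Control. The second (85162958 to 85163240) had 2.07, 3.63 and 2.84 in RORgt-RORa-KO, 5.23 and 5.14 in RORgt-Tbet-KO, 4.81 and 4.56 in RORgt-KO and 5.28, 5.73 and 5.07 in Control. RORgt-RORa-KO lay below all other libraries at both, though its own libraries held few reads (17, 5 and 7 at the first peak and 3, 7 and 8 at the second) and spread by 1.00 and 0.78 (SD). The differences from Control were -1.92 (SE 0.40, adjusted p = 0.000486) and -2.51 (SE 0.43, adjusted p = 4.38e-05) in RORgt-RORa-KO, and 0.00 (SE 0.45, adjusted p = 1.00) and -0.68 (SE 0.48, adjusted p = 0.427) in RORgt-KO. The peak at the Cry1 gene end (85184314 to 85185669) had 8.61, 8.12 and 8.85 in RORgt-RORa-KO and 8.66, 8.39 and 8.46 in Control and was not a member.

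Nr1d1 encodes REV-ERBa, the repressor of the same elements. Its member (chromosome 11, 98772666 to 98773094) had 6.39, 5.46 and 6.65 in RORgt-RORa-KO, 7.22 and 7.49 in RORgt-Tbet-KO, 7.08 and 6.99 in RORgt-KO and 5.86, 6.18 and 7.02 in Control. RORgt-RORa-KO and Control overlapped (-0.19, SE 0.27, adjusted p = 0.650), and RORgt-Tbet-KO was higher than Control by 1.00 (SE 0.30, adjusted p = 0.0177). Control replicate 3 lay between the RORgt-KO libraries, and RORgt-KO did not pass against Control (0.68, SE 0.30, adjusted p = 0.157). The peak was thus unresolved. Of the other Nr1d1 peaks, those that start at 98775359 (-0.60, adjusted p = 0.0204) and 98782833 (-0.74, adjusted p = 0.00409) were lower in RORgt-RORa-KO than in Control. The one at 98773643 did not pass (-0.44, adjusted p = 0.0871).

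**Figure D4:**
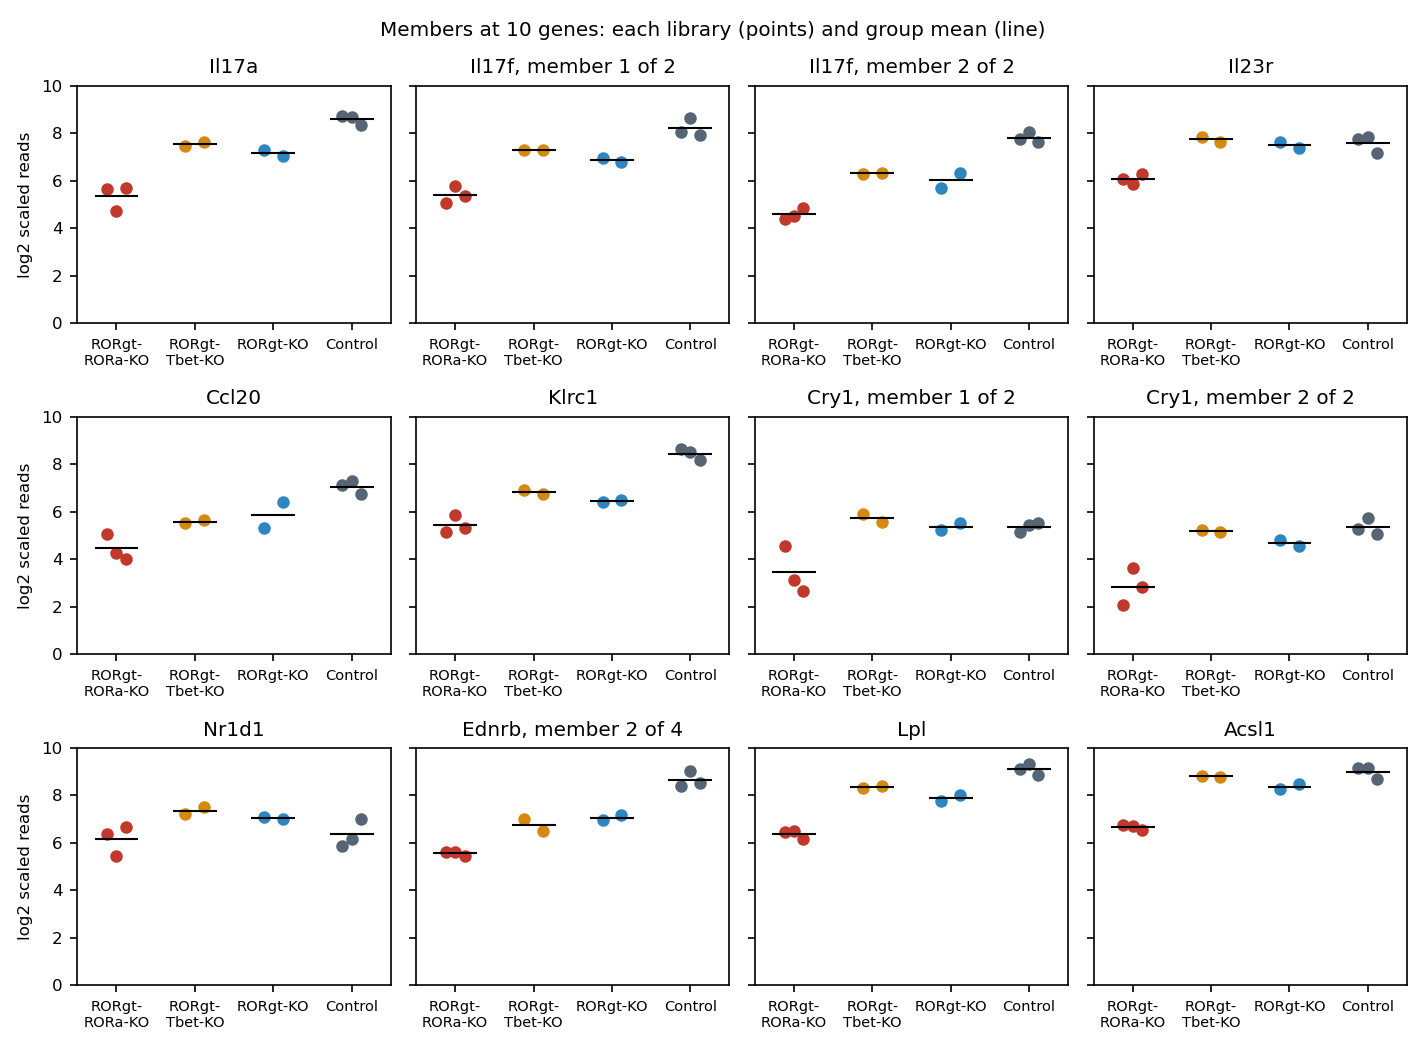
Log2 scaled reads of 12 member peaks at 10 genes; points are libraries and lines are group means. RORgt-RORa-KO is lowest in every panel except Nr1d1, where it overlaps Control; at Il17a, Il17f, Ccl20, Klrc1, Ednrb and Lpl the other knockouts lie between it and Control, and at Il23r and Cry1 they overlap or adjoin Control.

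Among lymphocyte transcription factor genes, 6 of 53 had members (7 of 430 peaks, 1.63%, below the 2.14% of all peaks): Bach2, Tox, Tox2, Zeb2, Nfatc1 and Runx2, with 2. Over the list, 65 peaks (15.1%, against 16.1% of all peaks) were lower and 102 (23.7%, against 15.1%) higher in RORgt-RORa-KO than in Control. RORgt-Tbet-KO had 37 lower (8.6%, against 11.3%) and 77 higher (17.9%, against 11.3%). RORgt-KO had 28 lower (6.51%, against 7.12%) and 33 higher (7.67%, against 5.19%). The Bach2 member, inside the gene of a repressor of effector programmes, had 2.48, 3.14 and 2.43 in RORgt-RORa-KO, 5.04 and 4.99 in RORgt-Tbet-KO, 4.68 and 4.65 in RORgt-KO and 5.99, 5.80 and 5.43 in Control. The Tox member, inside the gene of an HMG-box factor needed for ILC development, had 3.29, 4.82 and 2.84 in RORgt-RORa-KO, 5.64 and 5.87 in RORgt-Tbet-KO, 5.41 and 5.61 in RORgt-KO and 6.69, 6.56 and 6.56 in Control. At both, RORgt-RORa-KO lay furthest from Control, by -3.06 (SE 0.40) and -2.95 (SE 0.36), and the differences of RORgt-KO, -1.08 (SE 0.44, adjusted p = 0.119) and -1.10 (SE 0.41, adjusted p = 0.0783), did not pass. At the member 26777 bp from Zeb2, which encodes a zinc-finger factor of effector lymphocytes, all knockouts passed as lower: -2.29 (SE 0.17) in RORgt-RORa-KO, -1.02 (SE 0.19) in RORgt-Tbet-KO and -1.22 (SE 0.19) in RORgt-KO. The 2 members inside Runx2 differed from Control by -1.55 (SE 0.17) and -2.28 (SE 0.48) in RORgt-RORa-KO and passed in neither other knockout, the Tox2 member by -1.50 (SE 0.22), and the Nfatc1 member by -0.74 (SE 0.29, adjusted p = 0.0504). The Nfatc1 difference passed with the replicate block (adjusted p = 0.0194), a Y term (0.00481) or a pseudocount of 5 reads (0.0428), and without RORgt-RORa-KO replicate 1 (0.0449) or 3 (0.014) or Control replicate 1 (0.049).

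The lipid and glucose genes described as RORa targets in other tissues had members at Acsl1 and Lpl (2 of 79 peaks, 2.53%, near the 2.14% of all peaks). Acsl1 activates fatty acids for use and Lpl releases them from lipoproteins. The Lpl member, 46719 bp from the gene, had 6.46, 6.52 and 6.15 in RORgt-RORa-KO, 8.33 and 8.38 in RORgt-Tbet-KO, 7.75 and 8.0 in RORgt-KO and 9.13, 9.32 and 8.88 in Control. The Acsl1 member had 6.77, 6.73 and 6.54 in RORgt-RORa-KO, 8.83 and 8.76 in RORgt-Tbet-KO, 8.25 and 8.49 in RORgt-KO and 9.15, 9.16 and 8.68 in Control. The libraries of each group lay close together at both peaks, and the differences of RORgt-RORa-KO from Control were -2.73 (SE 0.17, adjusted p = 4.94e-12) and -2.32 (SE 0.17, adjusted p = 4.31e-11). Over the list, 13 peaks (16.5%) were lower and 11 (13.9%) higher in RORgt-RORa-KO than in Control, near the 16.1% and 15.1% of all peaks.

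Of 123 peaks of type 1 and natural cytotoxicity receptor genes, 57 (46.3%, against 15.1% of all peaks) were higher and 12 (9.76%, against 16.1%) lower in RORgt-RORa-KO than in Control. RORgt-Tbet-KO had 27 higher (22%, against 11.3%) and 13 lower (10.6%, against 11.3%). RORgt-KO had 26 higher (21.1%, against 5.19%) and 6 lower (4.88%, against 7.12%). The single member of this list (0.813% of its peaks, against 2.14% of all peaks) was inside Klrc1, which encodes the NKG2A chain of an inhibitory receptor. It had 5.13, 5.86 and 5.30 in RORgt-RORa-KO, 6.91 and 6.75 in RORgt-Tbet-KO, 6.43 and 6.51 in RORgt-KO and 8.65, 8.53 and 8.17 in Control, and passed as lower in all 3 knockouts (-3.02, SE 0.21; -1.62, SE 0.24; -1.98, SE 0.24). The Klr genes lie in a cluster of related copies, so reads could be split between them. The type 2 list (38 peaks), proximal receptor signalling (243) and immediate early genes (81) had no member, where 2.14% of all peaks were members. The type 2 list is too short for this to differ clearly from that share. Single members stood near Tgfbr3, a TGF-beta co-receptor (-1.45, SE 0.31), Itga4, an integrin chain of gut homing (-1.69, SE 0.51), and Tnfsf8, the CD30 ligand (-1.43, SE 0.27). In the cytokine receptor list, which holds Tgfbr3, 60 of 164 peaks (36.6%, against 15.1% of all peaks) were higher in RORgt-RORa-KO than in Control. There 13 (7.93%, against 16.1%) were lower. Higher in RORgt-Tbet-KO were 52 (31.7%, against 11.3%), and lower 5 (3.05%). RORgt-KO had 19 higher (11.6%, against 5.19%) and 5 lower (3.05%). The homing list, with Itga4, had 42 of 117 higher (35.9%) and 12 lower (10.3%) in RORgt-RORa-KO. For this list RORgt-Tbet-KO had 24 higher (20.5%) and 4 lower (3.42%), and RORgt-KO 13 (11.1%) and 5 (4.27%). The costimulatory list, with Tnfsf8, had 15 of 90 higher (16.7%) and 16 lower (17.8%) in RORgt-RORa-KO. The single members made up 0.61%, 0.85% and 1.11% of the peaks of these lists, in that order, against 2.14% of all peaks. The Itga4 call was lost without RORgt-RORa-KO replicate 3 (adjusted p = 0.0605) or Control replicate 3 (adjusted p = 0.0619). Among receptors for nerve signals, a member lay inside Chrm3, a muscarinic receptor (-3.44, SE 0.54). The log2 values given with an SE for these single members are differences of RORgt-RORa-KO from Control.

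Lists of T cell (6 peaks), B cell (12), myeloid (8) and stromal (19) markers and of housekeeping genes (32) had no member. They are too short for this to differ clearly from the 2.14% of all peaks. The epithelial list had the Krt8 peak, 1 of 12. It had 4.94, 5.68 and 4.97 in RORgt-RORa-KO, 7.48 and 7.38 in RORgt-Tbet-KO, 6.28 and 6.41 in RORgt-KO and 7.23, 7.18 and 7.18 in Control. Over the epithelial list, 2 peaks (16.7%, against 16.1% of all peaks) were lower and 3 (25%, against 15.1%) higher in RORgt-RORa-KO than in Control. The mean level of the list ranged over libraries from 5.82 to 6.02 in RORgt-RORa-KO, 5.92 to 5.97 in RORgt-Tbet-KO, 5.96 to 6.04 in RORgt-KO and 5.52 to 5.77 in Control. B cell markers, with peaks at 3 of 8 genes, were often lower than Control in all 3 knockouts. Of 12 peaks, 6 (50%, against 16.1% of all peaks) were lower in RORgt-RORa-KO. In RORgt-Tbet-KO 5 were (41.7%, against 11.3%), and in RORgt-KO 5 (41.7%, against 7.12%). The mean level of these markers ranged from 4.75 to 5.21 in RORgt-RORa-KO, 5.18 to 5.39 in RORgt-Tbet-KO, 5.09 to 5.14 in RORgt-KO and 5.67 to 5.94 in Control. Their part in the members' values was not tested.

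By the lesser gap between knockouts, the leading members open in Control that had a named gene and at least 10 reads in each RORgt-Tbet-KO and RORgt-KO library stood at Slc4a4, Erich3, Thbs2, Rprd1b, Stpg2, Kcnh8, Ldhb and Nyx, with gaps of 2.10 to 2.69. Slc4a4, a bicarbonate transporter, had 3.81, 2.82 and 0.84 in RORgt-RORa-KO, 5.53 and 5.42 in RORgt-Tbet-KO, 4.53 and 5.82 in RORgt-KO and 6.21, 5.86 and 5.68 in Control. The member 1272 bp from Erich3 had 4.94, 4.40 and 4.89 in RORgt-RORa-KO, 7.39 and 7.09 in RORgt-Tbet-KO, 7.08 and 7.24 in RORgt-KO and 6.44, 7.63 and 7.03 in Control. At Erich3 both other knockouts overlapped Control, whereas the member 24061 bp from Thbs2, a matrix protein, had 4.73, 3.99 and 4.54 in RORgt-RORa-KO, 6.83 and 7.09 in RORgt-Tbet-KO, 6.43 and 7.14 in RORgt-KO and 8.09, 8.20 and 8.10 in Control. Of these 8, the Thbs2 peak also passed as lower than Control in RORgt-Tbet-KO (-1.17, SE 0.26) and RORgt-KO (-1.34, SE 0.26). Several held few reads: the Ldhb peak had 7, 1 and 6 reads in RORgt-RORa-KO, 27 and 24 in RORgt-Tbet-KO, 17 and 12 in RORgt-KO and 31, 19 and 12 in Control.

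The closed class was small and thinly covered. Of its 27 members, 4 lay in near-identical copies of Dynlt1b and its neighbours on chromosome 17, where reads cannot be assigned to 1 copy: the 6 peaks there held 80, 0 and 255 reads in RORgt-RORa-KO, 387 and 540 in RORgt-Tbet-KO, 234 and 155 in RORgt-KO and 1, 2 and 0 in Control. These values are uncertain, and no fold is given; whether the mice differed in the number of copies or in strain background there was not tested. They were also 4 of the 5 members higher in RORgt-RORa-KO than in Control; the fifth, inside Gng12, had 4.73, 4.63 and 4.24 in RORgt-RORa-KO, 5.91 and 5.65 in RORgt-Tbet-KO, 5.53 and 5.46 in RORgt-KO and 2.96, 2.37 and 2.26 in Control. Its order, with Control lowest and RORgt-RORa-KO between it and the other knockouts, came with 2 further members inside Gng12 at which RORgt-RORa-KO was lower than Control (-0.62, SE 0.19, and -1.45, SE 0.22); the first of these calls was lost without Control replicate 1 (adjusted p = 0.0626) or 2 (adjusted p = 0.133). The closed member 2155 bp from Nkain1 had 3.94, 4.14 and 3.93 in RORgt-RORa-KO, 5.61 and 5.39 in RORgt-Tbet-KO, 5.33 and 5.65 in RORgt-KO and 4.28, 3.37 and 4.85 in Control. RORgt-RORa-KO and Control overlapped there, and the other knockouts lay above Control, as the class requires, by 1.33 (SE 0.44) in RORgt-Tbet-KO and 1.32 (SE 0.44) in RORgt-KO. At Zfp64, Nmi and Ppm1d, likewise, RORgt-RORa-KO differed from Control by -0.33, -0.15 and 0.02, and none passed; the differences at Nsd2, Slc30a9 and Nos1ap, 1.39 (SE 0.83), 1.18 (SE 0.72) and 0.71 (SE 0.72), did not pass either.

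Members fell on 529 genes (4.02% of 13143 genes with a peak), and 150 had no protein-coding gene within 50 kb. A gene had 1 member in 450 cases, 2 in 63, 3 in 13 and 4 in 3, namely Crispld2, Ednrb and Fam50b. Ednrb encodes the endothelin B receptor, and 4 of its 8 peaks on chromosome 14 were members. The member over its start (103843392 to 103844434) had 5.61, 5.63 and 5.43 in RORgt-RORa-KO, 7.01 and 6.51 in RORgt-Tbet-KO, 6.96 and 7.17 in RORgt-KO and 8.40, 9.04 and 8.52 in Control. All knockouts lay below Control, RORgt-RORa-KO furthest, with differences of -3.10 (SE 0.20, adjusted p = 9.81e-12) in RORgt-RORa-KO, -1.89 (SE 0.23) in RORgt-Tbet-KO and -1.59 (SE 0.23) in RORgt-KO. The other 3 members of Ednrb differed from Control by -2.81, -2.89 and -3.42 in RORgt-RORa-KO. At Crispld2, a secreted protein gene, 4 of 8 peaks were members, with differences of -0.71 to -1.77; the calls of the members that start at 120026303 and 120049995 on chromosome 8 were lost without RORgt-RORa-KO replicate 3, among other libraries (adjusted p = 0.0947 and 0.0604). At Fam50b the 4 members differed by -0.58 to -2.09, and 3 passed; with RORgt-RORa-KO replicate 1 left out, the other passed too (adjusted p = 0.0404).

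Of the members, 224 (28.8%) had another member within 50 kb, and 84 stood in 24 runs of at least 3. The same share was not taken for other sets of peaks, so it does not show that members cluster more than others. The longest run held 7 of the 9 peaks in a stretch of 124805 bp on chromosome 3 (78630750 to 78755555) with no protein-coding gene within 50 kb. Its member with the largest gap (78638260 to 78638567) averaged 4.13 in RORgt-RORa-KO, 6.37 in RORgt-Tbet-KO, 6.22 in RORgt-KO and 6.54 in Control. All 7 were open in Control. Next came a run of 6 near Ccny on chromosome 18, where all 6 peaks of the stretch were members and 5 were open in Control. A run of 4 lay near Fkbp5, which encodes a glucocorticoid-induced chaperone, with Tead3 and Tulp1, and runs of 3 inside Cabin1, an inhibitor of calcineurin, and at Dlc1 and Kcnip3. The 3 members at Dlc1 differed from Control by -3.02, -2.40 and -2.09 in RORgt-RORa-KO. Peaks in a run are not independent of each other. By chromosome, the share of peaks that were members ranged from 1.19% (chromosome 11) to 3.22% (chromosome 18).

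Members lay away from gene ends. Within 1 kb of an end of a protein-coding gene lay 5.41% of members, against 29.9% of all peaks; 48.5% against 39.0% lay inside a gene, 26.8% against 20.9% between genes at 1 to 50 kb, and 19.3% against 10.2% more than 50 kb from any gene. The median distance to the nearest gene end was 26126 bp for members and 8855 bp for all peaks. The 678 peaks of the mirrored rule had nearly the same places, with 5.6% within 1 kb of a gene end and a median distance of 27761.5 bp. This was thus shared with the peaks that were higher in RORgt-RORa-KO than in the other knockouts. Members had a median length of 441 bp, against 316.5 bp for the mirrored set and 480 bp for all peaks.

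**Figure D5:**
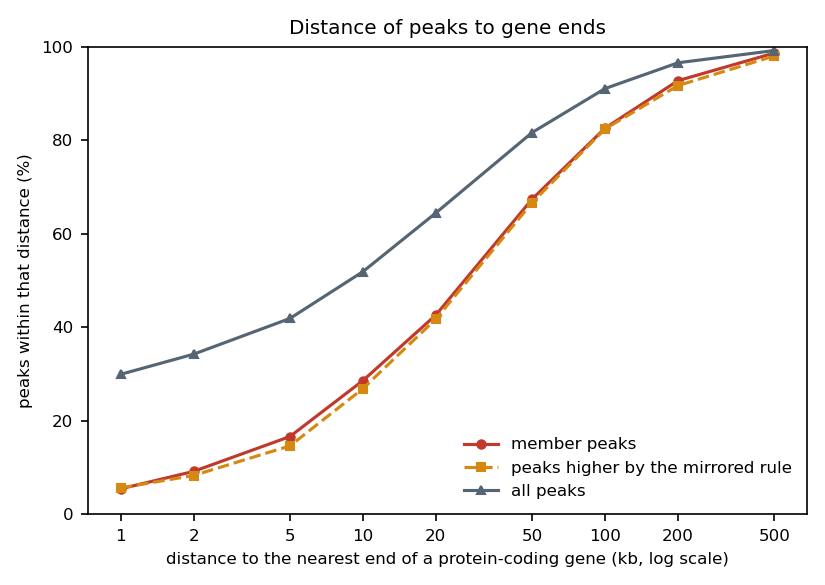
Percentage of peaks within a given distance of the nearest end of a protein-coding gene (kb, log scale) for the 777 members, the 678 peaks higher in RORgt-RORa-KO than in the other knockouts by the mirrored rule, and all 36251 peaks. The first and second curves run together, at 5.41% and 5.6% within 1 kb, and lie below the curve of all peaks, at 29.9%.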

How the data were processed

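ATAC-seq of intestinal ILCs was analysed from the table of peaks that the authors deposited, with 10 libraries in 4 groups. Per the submitters' processing notes, Trim Galore 0.62, Bowtie2 2.3.5.1, SAMtools, MACS2 and the build GRCm38 were used, with no settings named. The deposited values are log2 scaled reads per peak: raised from log2, the values of a library were whole multiples of 1 step, within 0.01, with empty peaks at 0.9 of a step, so whole reads were recovered. The 11 peaks on Y were left out of 36262.

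The members and gene lists were chosen with earlier results of these data known. Genes are the nearest protein-coding RefSeq gene within 50 kb. limma 3.58.1 (R 4.3.3; trend option, a single fit of 4 groups, 22.5 prior and 6 residual degrees of freedom) was fitted to all 36251 peaks, with Benjamini-Hochberg adjustment at 0.05, after a check on simulated data. Named were the 8 members of the open and of the closed class with the largest gap (1 per gene, predicted genes left out, at least 10 reads in each RORgt-KO and RORgt-Tbet-KO library), genes with 3 or more members, members in the 18 gene lists (400 genes), and the peaks next to the threshold; peaks named for differing between RORgt-Tbet-KO and RORgt-KO, the D430041D05Rik peak, the non-members of named genes and the chromosome 3 run were chosen after their values were seen. Libraries are biological replicates per the labels, some of pooled mice. Alternatives covered the threshold, scaling, model, read filter and each library left out. Python 3.11.15, numpy 2.4.6, pandas 2.3.3 and matplotlib 3.10.9 were used. Some results on genes of the lists are not reported here.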

Additional observations from a re-analysis of the deposited data

How the results depend on the processing

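With a threshold of 0.6 or 1.0 in place of 0.8, the rule gave 1189 or 483 peaks, 54 or 12 of them closed in Control, and 441 open in Control at 1.0. Leaving out 1 library gave 777 to 1137 members, 681 to 962 open and 27 to 56 closed. The 777 came from leaving out a Control library, which the rule does not use. Without a knockout library the rule gave 791 to 1137, and fewer libraries make an overlap less likely. In the tests with 1 library left out, calls were counted over the 777 members chosen with all libraries. Members lower than Control then numbered 642 to 673 in RORgt-RORa-KO, 94 to 225 in RORgt-Tbet-KO and 94 to 252 in RORgt-KO; members higher numbered 10 to 56 in RORgt-Tbet-KO and 4 to 18 in RORgt-KO. Members that differed between RORgt-Tbet-KO and RORgt-KO numbered 0 to 9 with 1 library left out, 0 without a trend, 0 with quantile normalization, 13 with voom on the recovered reads, 62 with only both groups in the fit and, in an alternative chosen after seeing the data, 7 with a term for Y signal. With only RORgt-KO and Control in the fit, 6 members were higher in RORgt-KO. The cause of these shifts was not tested. Of 74 named peaks, 55 kept the direction and the side of the threshold in every setting. Signs turned, never past the threshold, for 5 of them in RORgt-RORa-KO against Control. With 1 library left out, the difference ranged from -0.22 to 0.45 for Ppm1d (turned values -0.18, -0.22, -0.13 and -0.13), -0.43 to 0.17 for Nr1d1 (0.17 and 0.15), -0.45 to 1.36 for Nos1ap, -0.56 to 0.18 for Nkain1 and -0.41 to 0.06 for Nmi (0.0635). Ppm1d also turned with quantile normalization (-0.0628) and the Y term (-0.15), and Nr1d1 with voom (0.034).

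Replicate numbers gave no sign of pairing. Deviations of libraries from their group means correlated between -0.12 and 0.14 for the same number and between -0.14 and 0.14 for different numbers. In groups of 2 libraries these deviations mirror each other, so the check cannot exclude pairing. With the replicate block, 685 members were lower than Control in RORgt-RORa-KO, 227 in RORgt-Tbet-KO and 251 in RORgt-KO, 51 and 14 were higher in RORgt-Tbet-KO and RORgt-KO, and 6 differed between RORgt-Tbet-KO and RORgt-KO. The number of libraries, 2 in RORgt-Tbet-KO and in RORgt-KO, and the few reads of low peaks limit the precision.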
